A study of Mus musculus with 12 samples.

Results

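The 9 genes described here encode proteins that start, carry out, restrain or undo blood clotting. They are F3, F10, F13a1, Plau, Plat, Plaur, Thbd, Procr and Vwf, found by their symbols among the 21956 genes of a count table of mouse brain. The RNA came from tissue next to an intracerebral hemorrhage (ICH), made by injecting collagenase into the right striatum, and from matching tissue of sham-operated mice, which had the same surgery without collagenase. There were 12 libraries, each labelled as a numbered sample of 1 of 4 groups with 3 samples each. The samples are called mice here, although the labels do not say that each is a separate mouse. Sham-Fabp4flox/flox and ICH-Fabp4flox/flox mice carried a floxed Fabp4 gene. Sham-Fabp4CKO and ICH-Fabp4CKO mice also carried an inducible Cre recombinase driven from Tmem119, a gene that marks microglia in the brain, and had been given tamoxifen (150 mg/kg daily over 7 days), with surgery 14 days after the last dose. All 4 groups thus shared the floxed alleles. Whether the floxed control mice received tamoxifen, and the age and sex of the transgenic mice, were not given in the sources used here. ICH tissue was taken at 48 h, and mice without neurological deficits after ICH had been excluded by the investigators, so the ICH groups are a selection of the operated animals. The comparisons ask how hemorrhage changed these genes in each genotype and whether deleting Fabp4 with the microglial Cre went with another response.

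Clotting outside intact vessels begins when tissue factor, the product of F3, meets factor VII in leaked plasma. The pair activates factor X, the product of F10, which with factor V turns prothrombin into thrombin. Thrombin makes fibrin, and the A subunit of factor XIII, from F13a1, crosslinks it. Urokinase (Plau) and tissue-type plasminogen activator (Plat) turn plasminogen into plasmin, which dissolves fibrin, and Plaur encodes the receptor that holds urokinase at the cell surface. Thrombomodulin (Thbd) and the endothelial protein C receptor (Procr) sit on the vessel lining and switch thrombin from clotting to protein C activation. Von Willebrand factor (Vwf) is stored in endothelial cells and platelets and tethers platelets to injured vessel walls. In brain, astrocytes are a known source of tissue factor, and monocytes and macrophages can express F10, F13a1, Plau and Plaur.

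Total counts per library were 15650813 to 22406216. Fabp4, counted as the check of the knockout, had 46, 63 and 24 counts in the ICH-Fabp4flox/flox mice, 5, 3 and 10 in the ICH-Fabp4CKO mice, 1 to 2 in Sham-Fabp4flox/flox and 0 in each Sham-Fabp4CKO mouse. The 2 ICH groups did not overlap in Fabp4 (log2 fold change -2.94, SE 0.625, adjusted p = 0.295). Neuron markers (7 genes, among them Snap25, Rbfox3 and Syt1) summed to between 1360 and 5530 CPM (counts divided by the TMM library size and multiplied by 1e+06) over the 12 libraries, so brain tissue was present in each. ICH-Fabp4CKO mouse 2 stood apart. Its highest correlation of log2 CPM with another library was 0.956, the lowest of the 12, and its monocyte and macrophage markers (8 genes, among them Ccr2, Ly6c2 and Chil3) summed to 450 CPM against 2280 and 2880 CPM in its group. In the Sham-Fabp4flox/flox group, choroid plexus markers (4 genes, among them Ttr, Folr1 and Kl) summed to 833, 1580 and 3110 CPM, against 22.2 to 25.7 CPM in Sham-Fabp4CKO. Mitochondrial transcripts made up 16.3% of counts in ICH-Fabp4flox/flox mouse 1 and 7.90% to 11.9% in the others.

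After ICH, every one of the 9 genes was higher in Fabp4flox/flox mice, from 1.99-fold for Plat to at least 83.3-fold for F10. All 9 passed an adjusted p of 0.05 in edgeR's quasi-likelihood test, beside 26.2% of the 14719 genes tested that rose. In each of the 9, the 3 ICH mice lay above the 3 sham mice, which 34.4% of genes tested also showed. In Fabp4CKO mice, 8 of the 9 rose, beside 24.5% of 14737 genes, and Plat did not pass. The 8 that rose also had groups that did not overlap, beside 33.2% of genes. F10, F13a1, Plaur and Procr passed the filter on low counts only through the ICH libraries, where they were high. Their lowest sham libraries held 0, 6, 4 and 2 counts in Fabp4flox/flox and 0, 8, 7 and 8 in Fabp4CKO. The numbers of genes that rose thus describe the genes and are no support for a direction. The exact permutation test of 3 mice against 3 cannot give a p below 0.1. In whole tissue, more cells of a type and more RNA per cell cannot be told apart.

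**Figure D1:**
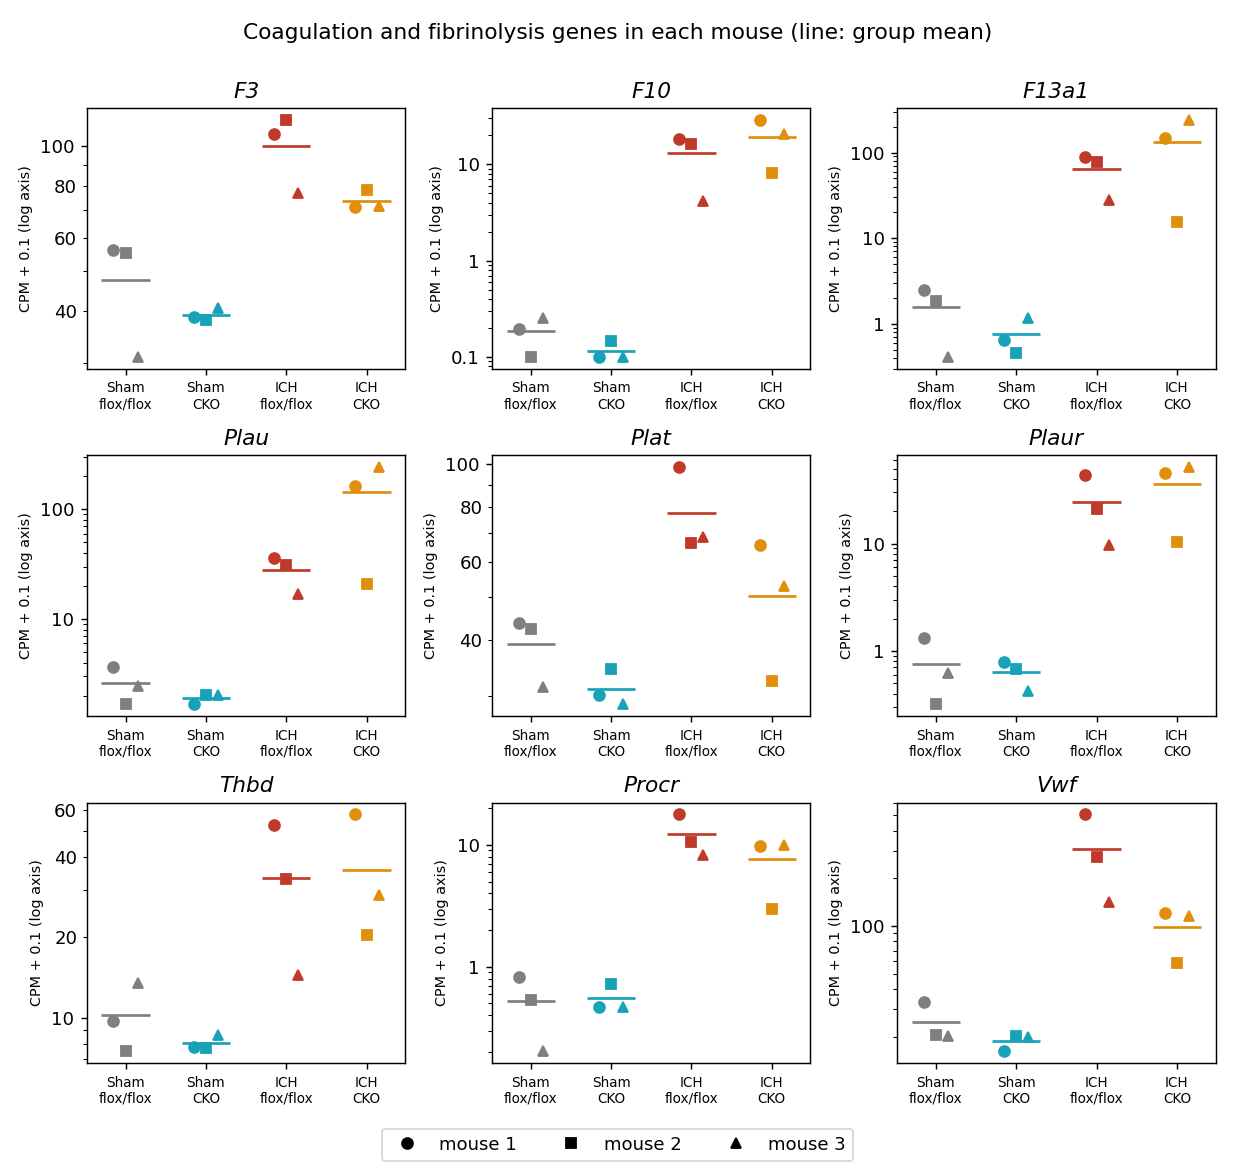
Level of each of the 9 genes in each mouse, as CPM plus 0.1 on a log axis, by group on the horizontal axis. Symbols mark mouse number and lines the group mean of 3 mice, and the ICH-Fabp4flox/flox mice lie above the Sham-Fabp4flox/flox mice in every panel.

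**Figure D2:**
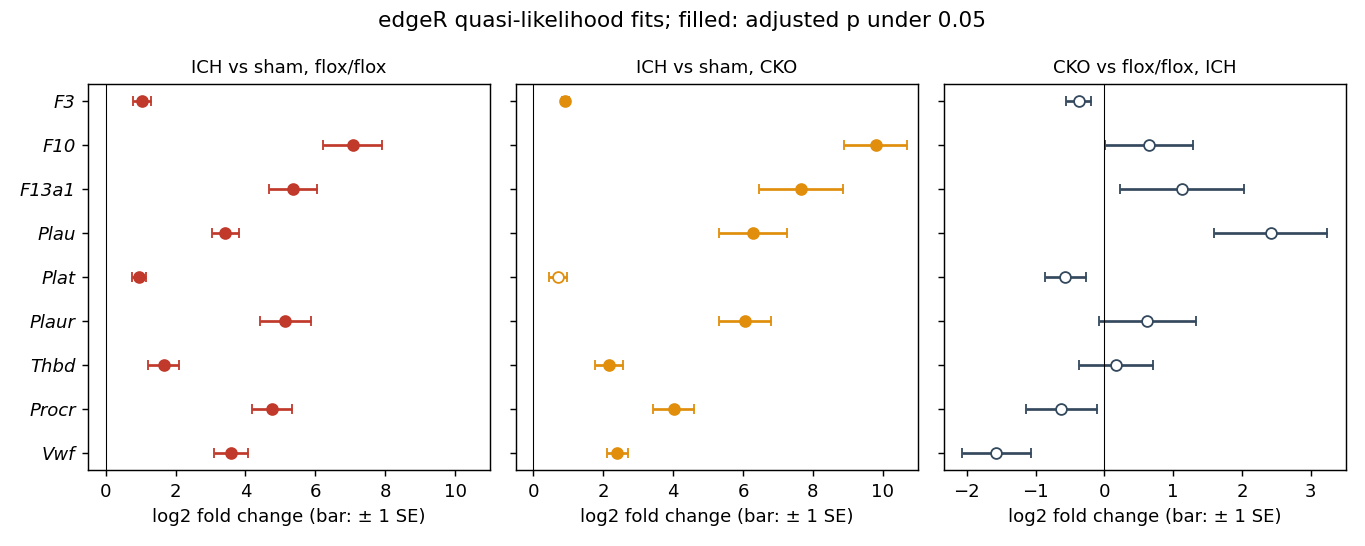
Log2 fold change with 1 SE for the 9 genes in ICH against sham in each genotype, and in ICH-Fabp4CKO against ICH-Fabp4flox/flox. Filled symbols passed an adjusted p of 0.05 (9 in the first panel, 8 in the second, 0 in the third), and the third panel has its own axis.

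F3 (ENSMUSG00000028128), the gene for tissue factor, had 599 to 1163 counts in each sham library and rose in both genotypes. It stood at 56.05, 55.1 and 30.9 CPM in Sham-Fabp4flox/flox mice and at 38.5, 38.1 and 40.5 CPM in Sham-Fabp4CKO mice. After ICH it reached 106, 115 and 77.0 CPM in Fabp4flox/flox and 71.3, 78.0 and 71.6 CPM in Fabp4CKO. The lowest ICH mouse lay above the highest sham mouse of either genotype, and the knockout values were close together within each surgery. The log2 fold change against sham was 1.03 (SE 0.257, adjusted p = 0.0161) in Fabp4flox/flox and 0.92 (SE 0.104, adjusted p = 0.00549) in Fabp4CKO. Without ICH-Fabp4flox/flox mouse 2 the first value was 0.87, with an adjusted p of 0.0716. Astrocyte markers (6 genes, among them Aqp4, Gja1 and Aldh1l1) summed to between 2640 and 2880 CPM in sham mice of both genotypes and to between 5340 and 7340 CPM in ICH mice. Most of that rise was Gfap, from means of 255 and 147 CPM in sham to 4291 and 2806 CPM after ICH in Fabp4flox/flox and Fabp4CKO. Aqp4, Aldh1l1 and Gfap were the 3 of the 6 that rose, in both genotypes, while Gja1 was at means of 226 and 244 CPM in the Fabp4flox/flox groups and 219 and 247 CPM in the Fabp4CKO groups. Their part in the F3 result was not tested.

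RefSeq promoter windows (250 bases before to 50 after the start, assembly GRCm38.p6) were at hand for 5 of the 9 genes, with 6 windows in all, and F3, Plaur and Procr share a feature that the choice of genes did not use. Each holds the AP-1 motif TGANTCA upstream of its start, so that 3 of the 6 windows had it, against 7.81% of all 32851 windows. AP-1 had the most matched windows of the 6 motifs searched, and 2 of the 6 windows belong to F13a1. With so few windows, these shares cannot show whether the motif is more frequent in these genes. The stretches that hold the matches are printed with every matched motif in capitals.

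F3, chr3:121723381-121723528, plus strand: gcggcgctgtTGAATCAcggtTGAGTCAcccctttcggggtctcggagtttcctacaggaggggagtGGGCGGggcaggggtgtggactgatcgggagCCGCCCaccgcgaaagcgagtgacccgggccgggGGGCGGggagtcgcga
Plaur, chr7:24462362-24462430, plus strand: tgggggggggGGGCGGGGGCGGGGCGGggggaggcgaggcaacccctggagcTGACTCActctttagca
Procr, chr2:155751053-155751079, plus strand: cccaccccccTGACTCAgcggcgacct

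In F3 the AP-1 matches TGAATCA and TGAGTCA begin 146 and 135 bases before the start, and 3 SP1 motifs (GGGCGG, the middle one on the other strand as CCGCCC) follow them. In Plaur the match TGACTCA begins 69 bases before the start, after 3 SP1 motifs that touch or overlap one another and overlap an EGR1 motif (GCGNGGGCG). In Procr the same 7 letters begin 154 bases before the start. Both strands were searched. SP1 motifs occur in 35.7% of all windows and EGR1 motifs in 5.55%. The ETS core CCGGAA (14.9% of all windows) and the CRE motif TGACGTCA (1.79%) had no match in the 6 windows. The NF-kB pattern searched (8.46%), whose letters are not given here, had no match in them either. A site that departs from the searched letters would be missed, so the lack of a match does not show that these windows lack NF-kB sites. The F10 window and the 2 F13a1 windows had no match for any of the 6 motifs. These are matches of letters, and nothing was measured at the promoters.

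F10 (ENSMUSG00000031444), which encodes the protease at the centre of the cascade, was at the floor of the sequencing in sham brain and present in every ICH mouse. It had 2, 0 and 3 counts in Sham-Fabp4flox/flox and 0, 1 and 0 in Sham-Fabp4CKO, all at or under a floor of 3 counts per library. ICH libraries held 262, 259 and 76 counts in Fabp4flox/flox and 443, 151 and 379 in Fabp4CKO, or 18.4, 16.2 and 4.04 CPM and 28.7, 8.05 and 20.7 CPM. ICH thus separated from sham in both genotypes, while the genotypes overlapped. Set against the floor, F10 was at least 83.3-fold higher after ICH in Fabp4flox/flox (adjusted p = 0.000984) and at least 140-fold higher in Fabp4CKO (adjusted p = 0.00478). F7, its neighbour in the RefSeq annotation and the partner of tissue factor, went from 0 to 2 counts in the 6 sham mice to 251, 153 and 106 counts in ICH-Fabp4flox/flox and 176, 40 and 559 in ICH-Fabp4CKO.

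F13a1 (ENSMUSG00000039109), the subunit of factor XIII that macrophages and platelets also contain, had the largest ratio of ICH to sham means among the 8 members above the floor in sham, at 43.1-fold in Fabp4flox/flox and 204-fold in Fabp4CKO. In sham mice it was at 2.41, 1.75 and 0.310 CPM in Fabp4flox/flox and at 0.555, 0.358 and 1.06 CPM in Fabp4CKO. ICH mice had 88.1, 77.4 and 27.5 CPM in Fabp4flox/flox and 147, 15.4 and 239 CPM in Fabp4CKO. The 3 knockout values spread widely, with mouse 2 below all 3 floxed mice and mice 1 and 3 above them. The log2 fold change was 5.37 (SE 0.687, adjusted p = 0.00121) in Fabp4flox/flox and 7.66 (SE 1.2, adjusted p = 0.00901) in Fabp4CKO. With any 1 of the Sham-Fabp4CKO mice left out, the knockout value ran from 7.36 to 8.18 with adjusted p from 0.0507 to 0.0558. F13a1 overlaps 2 predicted genes, Gm30240 and Gm30489, in the RefSeq annotation, and the strand setting of the counting was not given.

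Of the 3 genes of plasminogen activation, Plau and Plaur rose by over 10-fold in both genotypes and Plat by 1.99-fold in Fabp4flox/flox. Plau (ENSMUSG00000021822) was at 3.57, 1.59 and 2.32 CPM in Sham-Fabp4flox/flox and at 1.57, 1.93 and 1.93 CPM in Sham-Fabp4CKO. After ICH it was at 36.1, 30.7 and 16.7 CPM in Fabp4flox/flox and at 165, 20.6 and 242 CPM in Fabp4CKO. In the knockout, mice 1 and 3 were above every floxed ICH mouse, and mouse 2 lay among them. The log2 fold change of Plau against sham was 3.42 (SE 0.381, adjusted p = 0.000737) in Fabp4flox/flox and 6.29 (SE 0.972, adjusted p = 0.00875) in Fabp4CKO, or 11.2-fold and 78.6-fold between means. The knockout call was lost when any 1 of the Sham-Fabp4CKO mice was left out, with adjusted p from 0.0529 to 0.0547 and values from 6.20 to 6.34.

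Plaur (ENSMUSG00000046223), the urokinase receptor, was near the floor in sham tissue, with 4 to 25 counts per library. Its levels were 1.21, 0.219 and 0.516 CPM in Sham-Fabp4flox/flox and 0.694, 0.582 and 0.322 CPM in Sham-Fabp4CKO. ICH brought it to 43.1, 20.7 and 9.51 CPM in Fabp4flox/flox and to 45.5, 10.3 and 51.3 CPM in Fabp4CKO. ICH and sham did not overlap in either genotype, and the 2 ICH groups overlapped. Plaur rose by 5.14 on the log2 scale in Fabp4flox/flox (SE 0.723, adjusted p = 0.00175) and by 6.05 in Fabp4CKO (SE 0.751, adjusted p = 0.00599), and it held the call with each library left out in turn.

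Plat (ENSMUSG00000031538), which encodes the activator that neurons and endothelial cells release, had 604 to 907 counts in each sham library. Its sham levels were 43.7, 42.2 and 31.2 CPM in Fabp4flox/flox and 29.9, 34.4 and 28.6 CPM in Fabp4CKO. It was at 98.4, 66.2 and 68.5 CPM in ICH-Fabp4flox/flox and at 65.7, 32.2 and 53.0 CPM in ICH-Fabp4CKO. In the floxed genotype ICH lay clear of sham, whereas ICH-Fabp4CKO mouse 2 fell within the Sham-Fabp4CKO range. The log2 fold change was 0.95 (SE 0.202, adjusted p = 0.009) in Fabp4flox/flox and 0.70 (SE 0.265, adjusted p = 0.0768) in Fabp4CKO. Without ICH-Fabp4CKO mouse 2 the knockout value was 0.94 (SE 0.133, adjusted p = 0.000596).

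The anticoagulant pair of the vessel lining rose in both genotypes from different starting points. Thbd (ENSMUSG00000074743) was at 9.59, 7.40 and 13.4 CPM in Sham-Fabp4flox/flox and at 7.68, 7.61 and 8.51 CPM in Sham-Fabp4CKO. After ICH it was at 52.5, 32.9 and 14.4 CPM in Fabp4flox/flox and at 57.7, 20.4 and 28.8 CPM in Fabp4CKO. ICH-Fabp4flox/flox mouse 3 stood just above the highest sham mouse. Thbd rose by 1.66 on the log2 scale in Fabp4flox/flox (SE 0.442, adjusted p = 0.0201) and by 2.17 in Fabp4CKO (SE 0.395, adjusted p = 0.0125). Of the 9 genes, Thbd lost its call most often when a library was left out. This happened in 4 of the 6 fits that left out a Fabp4flox/flox library (Sham mouse 1 or 2, ICH mouse 1 or 2; adjusted p from 0.0545 to 0.0764), and in the 3 that left out a Sham-Fabp4CKO mouse (0.0602 to 0.0648).

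Procr (ENSMUSG00000027611), which presents protein C to the thrombin and thrombomodulin pair, was barely counted in sham tissue, at 15, 8 and 2 counts in Fabp4flox/flox and 8, 14 and 8 in Fabp4CKO. ICH mice had 17.7, 10.4 and 8.18 CPM in Fabp4flox/flox and 9.76, 2.88 and 9.79 CPM in Fabp4CKO, against at most 0.723 CPM in any sham mouse. All 6 ICH mice thus exceeded all 6 sham mice. The log2 fold change was 4.75 (SE 0.565, adjusted p = 0.000919) in Fabp4flox/flox and 4.02 (SE 0.584, adjusted p = 0.00768) in Fabp4CKO. Without Sham-Fabp4CKO mouse 3 the adjusted p in the knockout was 0.0507.

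Vwf (ENSMUSG00000001930), the platelet tether made by endothelial cells, rose in both genotypes and reached its highest levels in the floxed ICH mice. Sham levels were 33.3, 20.3 and 20.2 CPM in Fabp4flox/flox and 16.1, 20.02 and 19.8 CPM in Fabp4CKO. After ICH, Vwf stood at 508, 271 and 142 CPM in Fabp4flox/flox and at 120, 58.0 and 116 CPM in Fabp4CKO. The groups were ordered without overlap after ICH, with the lowest floxed mouse above the highest knockout mouse and the lowest knockout mouse above every sham mouse. The log2 fold change against sham was 3.59 (SE 0.475, adjusted p = 0.00138) in Fabp4flox/flox and 2.40 (SE 0.305, adjusted p = 0.00611) in Fabp4CKO, or 12.5-fold and 5.26-fold between means. Endothelial markers (10 genes, among them Cdh5, Cldn5 and Tie1) moved with it. All 10 rose in Fabp4flox/flox and 5 of the 10 in Fabp4CKO, with a median log2 fold change of 2.09 and 0.80, and their sum went from 250–265 to 561–1290 CPM and from 238–247 to 299–434 CPM. The part of endothelial content in the Vwf, Thbd, Procr and Plat results was not tested. Platelet markers (7 genes, among them Pf4, Ppbp and Itga2b) summed to 1.11 to 2.36 CPM in sham mice, 16.8 to 60 CPM in ICH-Fabp4flox/flox and 6.82 to 49.6 CPM in ICH-Fabp4CKO. Of the 7, 2 could be tested in Fabp4flox/flox, of which 1 rose, and 3 in Fabp4CKO, of which 3 rose (26.2% and 24.5% of all genes). Pf4, which macrophages also express, rose in both genotypes. The part of platelets in the Vwf result was not tested.

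None of the 9 genes passed the adjusted test between ICH-Fabp4CKO and ICH-Fabp4flox/flox, in which 0 of 14600 genes passed (0%). By the unadjusted p under 0.05, Plau was higher and Vwf lower in the knockout, a threshold that 1777 of all genes (12.2%) passed in either direction. Both also changed by at least 1.5-fold, as did 8.84% of genes. DESeq2 called 578 genes but none of the 9, with adjusted p of 0.0501 for Plau and 0.0511 for Vwf. The members with higher means in the knockout were F10, F13a1, Plau, Plaur and Thbd, and those with lower means were F3, Plat, Procr and Vwf. This comparison and the 2 against sham share their ICH libraries, so they are not independent views of the same genes.

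Plau had a mean of 142 ± 112 CPM (SD, n = 3) in ICH-Fabp4CKO and 27.9 ± 9.996 CPM (SD, n = 3) in ICH-Fabp4flox/flox, a 5.11-fold ratio, with overlapping mice. Its log2 fold change was 2.42 (SE 0.822, unadjusted p = 0.0234, adjusted p = 0.352). Leaving out ICH-Fabp4CKO mouse 2 gave 2.93 (SE 0.339, adjusted p = 0.0564), and leaving out mouse 3 gave 1.80 (SE 0.81, adjusted p = 0.656). Vwf had a mean of 98.1 ± 34.8 CPM (SD, n = 3) in ICH-Fabp4CKO and 307 ± 186 CPM (SD, n = 3) in ICH-Fabp4flox/flox, without overlap. Its log2 fold change was -1.57 (SE 0.5, unadjusted p = 0.0178, adjusted p = 0.347). Without ICH-Fabp4flox/flox mouse 1, the mouse with the highest Vwf and mitochondrial share, this was -1.03 (SE 0.427, adjusted p = 0.678), and without ICH-Fabp4CKO mouse 2 it was -1.30 (SE 0.49, adjusted p = 0.208).

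Plat was the other member whose ICH groups did not overlap, lower in the knockout at a log2 fold change of -0.57 (SE 0.296, adjusted p = 0.482), although 65.7 CPM in the highest knockout mouse and 66.2 CPM in the lowest floxed mouse were nearly equal. Groups that did not overlap, lower in the knockout, made up 11.5% of genes. The remaining 6 overlapped. F3 differed by -0.38 (SE 0.182, adjusted p = 0.456) and Procr by -0.62 (SE 0.512, adjusted p = 0.648) on the log2 scale. F10 differed by 0.65 (SE 0.641, adjusted p = 0.712), Plaur by 0.62 (SE 0.708, adjusted p = 0.749), F13a1 by 1.13 (SE 0.897, adjusted p = 0.637) and Thbd by 0.17 (SE 0.539, adjusted p = 0.922). Thbd turned to lower in the knockout in 2 of the 6 fits with a library left out.

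Summed markers of several cell types varied among the same 6 ICH mice. Endothelial markers summed to 1290, 855 and 561 CPM in ICH-Fabp4flox/flox and to 434, 299 and 370 CPM in ICH-Fabp4CKO. All 10 were lower in the knockout, with a median of -1.26 on the log2 scale, and 0 passed the adjusted threshold. As a log2 ratio to that sum, a measure chosen after the values were seen, Vwf was at -1.35, -1.66 and -1.99 in the floxed mice and at -1.85, -2.37 and -1.67 in the knockout mice, which overlap. Procr, by the same ratio, was at -6.19, -6.37 and -6.10 in the floxed and -5.47, -6.70 and -5.24 in the knockout mice, again with overlap. Thbd was at -4.62, -4.70 and -5.29 against -2.91, -3.88 and -3.69. The endothelial sums themselves did not overlap between genotypes, and by this ratio F3, F10, Plau and Plaur, like Thbd, were higher in every knockout mouse. The ratio of Thbd to the sum of monocyte and macrophage markers was -5.42, -5.31 and -5.34 in the floxed and -5.30, -4.47 and -6.64 in the knockout mice, with overlap. By the endothelial ratio Plat was at -3.72, -3.69 and -3.03 against -2.72, -3.21 and -2.80, with overlap. Mural cell markers (8 genes, among them Rgs5, Pdgfrb and Kcnj8) summed to 603 to 1140 CPM in the floxed and 322 to 563 CPM in the knockout ICH mice, with 7 of the 8 lower in the knockout. Of these 0 passed the adjusted threshold, and their part in the lower Vwf and Plat values was not tested.

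Monocyte and macrophage markers summed to 2250, 1310 and 582 CPM in ICH-Fabp4flox/flox and to 2280, 450 and 2880 CPM in ICH-Fabp4CKO, against 74.9 to 94.0 CPM in sham mice. The log2 ratio of Plaur to these sums varied little over the ICH mice. It was between -5.98 and -5.70 in the floxed ICH mice and between -5.81 and -5.44 in the knockout ones. For Plau the ratio was -5.96, -5.41 and -5.12 in the floxed and -3.79, -4.45 and -3.57 in the knockout mice, higher in the knockout without overlap. These sums were mostly Fn1, at means of 947 and 1406 CPM in the floxed and knockout ICH mice and 61.3 and 50.9 CPM in the sham mice, so the ratios are mainly to Fn1. Of the 8 markers, 6 were higher and 2 lower in the knockout ICH mice, with a median of 0.34 on the log2 scale, and 0 passed the adjusted threshold. Ms4a7, 1 macrophage gene of these 8, was chosen after its values were seen and does not stand for the list. It was at 20.1, 25.4 and 13.8 CPM in the floxed and 78.9, 12.3 and 130 CPM in the knockout ICH mice. F13a1 was at -4.67, -4.08 and -4.41 against -3.95, -4.87 and -3.59, and F10 at -6.93, -6.34 and -7.17 against -6.31, -5.80 and -7.12, both with overlap. Microglia markers (7 genes, among them Tmem119, P2ry12 and Sall1) summed to 1210 to 1460 CPM in the floxed and 1230 to 3830 CPM in the knockout mice. Neutrophil markers (8 genes, among them Ly6g, Ngp and Camp) summed to 37.9 to 68.4 CPM and 68.9 to 265 CPM, with 1 of the 8 at 0 in the whole floxed group. Meningeal fibroblast markers (Col1a1, Dcn and Lum) summed to 202, 115 and 51.1 CPM in the floxed and 427, 35.1 and 800 CPM in the knockout ICH mice. Of the 3, 2 were higher and 1 lower in the knockout. Border macrophage markers (4 genes, among them Cd163, Lyve1 and Mrc1) summed to 42.8, 16.5 and 13.5 CPM and to 37, 9.59 and 42.5 CPM. Of the 4, 1 was higher and 3 lower, and 0 of either list passed. The part of all these cells in the Plau, Plaur, F10 and F13a1 results was not tested.

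**Figure D3:**
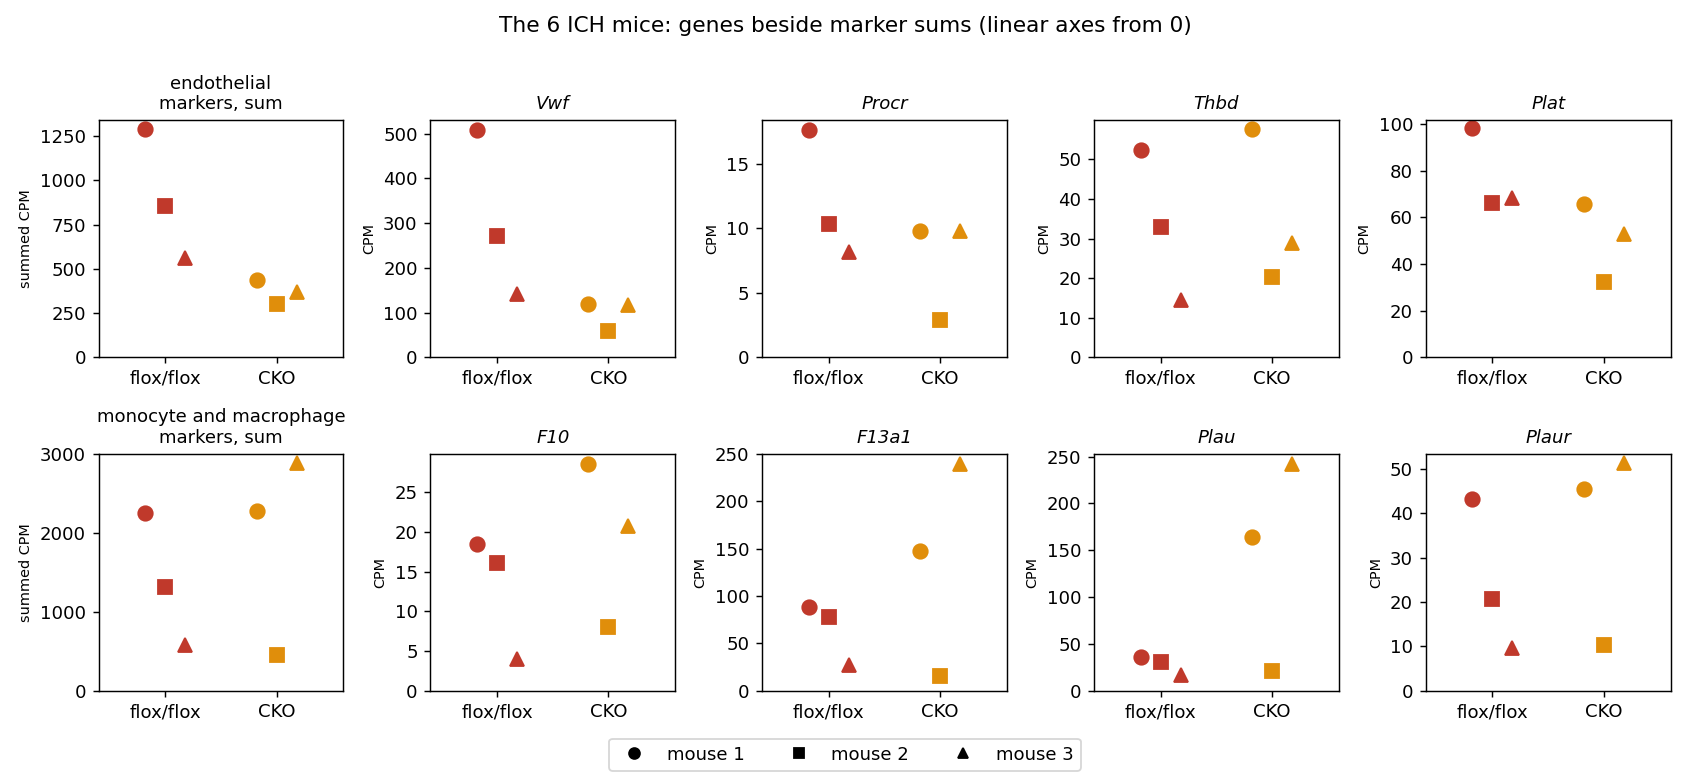
The 6 ICH mice by genotype, with summed CPM of endothelial markers beside Vwf, Procr, Thbd and Plat (top) and of monocyte and macrophage markers beside F10, F13a1, Plau and Plaur (bottom), on linear axes from 0. Each symbol is a mouse, and mouse 2 of the knockout (square) is lowest of its group in all 10 panels.

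Between genotypes in sham mice, 0 of the 7 members tested passed the adjusted threshold, beside 0.111% of 14395 genes, and 0 had an unadjusted p under 0.05 (10.2% of genes did). F10 and Procr did not pass the filter on low counts, and their groups overlapped (exact two-sided permutation p of 0.4 and 0.9). All 7 had lower means in Sham-Fabp4CKO, with log2 fold changes from -1.17 for F13a1 (SE 0.701, adjusted p = 0.541) to -0.27 for F3 (SE 0.21, adjusted p = 0.605). Vwf was the only 1 of them without overlap, at -0.39 (SE 0.205, adjusted p = 0.528), beside 8.86% of genes lower without overlap. Without Sham-Fabp4flox/flox mouse 3, the mouse with the most choroid plexus transcripts, 2862 genes passed, and 1531 of these were higher in the knockout. Calls were thus common in that fit, and the full comparison tested 14395 genes. Among those that passed were F3 at -0.49 (adjusted p = 0.00435), Plat at -0.46 (adjusted p = 0.0144) and F13a1 at -1.65 (adjusted p = 0.0354).

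The interaction term, which tests whether the response to ICH differed between genotypes, passed for 0 of the 9 genes, beside 0.0199% of 15089 genes. Plau had the smallest p, with the knockout response larger by 2.82 on the log2 scale (SE 0.993, unadjusted p = 0.0162, adjusted p = 0.39). It was the 1 member with an unadjusted p under 0.05 and a term of at least 1.5-fold, beside 7.89% of genes. Without ICH-Fabp4CKO mouse 2 it was 3.34 (SE 0.491) with an adjusted p of 0.0195, and with each of the other 11 libraries left out the adjusted p was 0.399 to 0.66. DESeq2 gave 2.89 (adjusted p = 0.0771). For F13a1 and F10 the terms were 2.24 (SE 1.35, adjusted p = 0.62) and 2.65 (SE 1.96, adjusted p = 0.685), and the latter rests on sham libraries at the floor.

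The other genes of the pathway showed a wider response. A list of 54 clotting factors, receptors, anticoagulants, fibrinolysis genes and partners of Vwf was followed beside the members. Of these, 31 were counted well enough to test in Fabp4flox/flox mice. There 19 rose and 2 fell after ICH (26.2% of all genes tested rose and 19.3% fell), and the median log2 fold change was 1.17, against 0.02 over all genes. In Fabp4CKO mice 34 could be tested, of which 21 rose and 1 fell (24.5% and 11.1% of all genes), with a median of 1.46 against 0.01. The fall in the knockout was in F2rl2, a protease-activated receptor, at -2.30 (SE 0.566, adjusted p = 0.028). F7, F9, Tfpi2 and Selp in both genotypes, and Serpinf2 in Fabp4CKO, passed the filter on low counts only through the ICH libraries, where they were high. Gp5 in Fabp4flox/flox and F2rl2 in Fabp4CKO passed it only through the sham libraries. Their calls describe these genes and are no support for a direction.

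Among clotting factors and cofactors, 6 of the 10 tested rose and 1 fell in Fabp4flox/flox, out of 20 listed, beside 26.2% and 19.3% of all genes. Those named here had the largest changes. F7 rose at least 70.8-fold in Fabp4flox/flox (adjusted p = 0.000408) and at least 107-fold in Fabp4CKO (adjusted p = 0.011). F9, the factor missing in hemophilia B, rose by 2.23 on the log2 scale in Fabp4flox/flox (SE 0.636, adjusted p = 0.0255), from 2 to 6 counts in sham libraries to 11 to 25 counts. P4hb, a protein disulfide isomerase with many other clients, rose by 1.66 (SE 0.271, adjusted p = 0.0032). F2, the gene for prothrombin, had at most 2 counts in any library, so its transcript was not detectable at this depth in these tissues.

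F5, the cofactor of factor X, was the clotting factor that fell, by 2.69 on the log2 scale in Fabp4flox/flox (SE 0.41, adjusted p = 0.00243). It was at 14.3, 34.2 and 45.7 CPM in Sham-Fabp4flox/flox and at 5.28, 5.11 and 4.68 CPM in ICH-Fabp4flox/flox. In knockout mice it was at 2.31, 1.34 and 2.76 CPM in sham and at 2.52, 2.29 and 1.75 CPM after ICH, a log2 fold change of 0.03 (SE 0.34, adjusted p = 0.941). The high values were thus those of 1 group. F5 was also the 1 listed gene that passed between sham genotypes, at -3.87 (SE 0.476, adjusted p = 0.0497). With the replicate number as a block, with at least 10 counts required in every library, or without Sham-Fabp4flox/flox mouse 2 or any 1 of the 3 Sham-Fabp4CKO mice, 0 listed genes passed, and without Sham-Fabp4flox/flox mouse 3 there were 7. The choroid plexus markers have the same order of mice in that group, with Ttr at 784, 1484 and 2929 CPM in Sham-Fabp4flox/flox and between 14.2 and 19.1 CPM in Sham-Fabp4CKO, and their part in the F5 result was not tested.

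Anticoagulants rose in 5 of 9 tested in Fabp4flox/flox and 6 of 9 in Fabp4CKO, beside 26.2% and 24.5% of all genes. Tfpi, the inhibitor of the tissue factor pathway, went up by 2.59 (SE 0.373, adjusted p = 0.00192) and 3.06 (SE 0.582, adjusted p = 0.0139) on the log2 scale. Tfpi2, a related inhibitor, rose at least 20.9-fold and at least 34.9-fold over sham libraries with 2 counts or fewer. Pros1, which encodes the protein C cofactor protein S, rose by 2.79 (SE 0.233, adjusted p = 0.000352) and 3.04 (SE 0.34, adjusted p = 0.00549). Entpd1, the ectonucleotidase that removes ATP and ADP, rose by 1.59 (SE 0.192, adjusted p = 0.000981) and 1.72 (SE 0.306, adjusted p = 0.0118).

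The fibrinolysis list also held Eno1, a glycolytic enzyme, Lrp1, an endocytic receptor, and Masp1, a complement protease. Of the list, 7 of 8 tested rose in Fabp4flox/flox and 8 of 10 in Fabp4CKO, beside the same shares of 26.2% and 24.5%. Eno1 and Masp1 were among the 7, and Lrp1 and Masp1 among the 8. Thbs1, a matrix protein that platelets and macrophages secrete, rose 37.8-fold and 116-fold between means. Anxa2 and S100a10, whose products form the surface complex that binds Plat and plasminogen, rose by 3.74 (SE 0.425, adjusted p = 0.000793) and 2.83 (SE 0.335, adjusted p = 0.000913) in Fabp4flox/flox and by 4.13 (SE 0.651, adjusted p = 0.00915) and 1.81 (SE 0.27, adjusted p = 0.00801) in Fabp4CKO. A2m, a broad protease inhibitor, rose by 2.92 (SE 0.369, adjusted p = 0.00116) and 4.58 (SE 0.346, adjusted p = 0.00478). Serpinf2, the plasmin inhibitor, was chosen after its values were seen, for having the smallest unadjusted p of the list between ICH genotypes. It had 9, 8 and 12 counts in ICH-Fabp4flox/flox and 60, 49 and 41 in ICH-Fabp4CKO, a log2 difference of 2.34 (SE 0.376, unadjusted p = 0.00058, adjusted p = 0.252).

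Of the 5 partners of Vwf, 3 could be tested in Fabp4flox/flox, where Selp rose and Gp5 fell, beside 26.2% and 19.3% of all genes. Selp, the gene for P-selectin, which is stored with Vwf in endothelial cells, had 3, 3 and 6 counts in Sham-Fabp4flox/flox and 0 in each Sham-Fabp4CKO mouse. It reached 89.3, 27.5 and 9.03 CPM in ICH-Fabp4flox/flox and 26.5, 5.54 and 9.02 CPM in ICH-Fabp4CKO, rising 203-fold between means (adjusted p = 0.00165) and at least 99.8-fold (adjusted p = 0.0119). Gp5, a platelet glycoprotein gene, went from 20, 21 and 14 counts to 1, 1 and 4 counts in Fabp4flox/flox (log2 fold change -2.93, SE 0.6, adjusted p = 0.00775). In Fabp4CKO its log2 fold change was -1.16 (SE 0.935, adjusted p = 0.336), and ICH and sham overlapped. Between ICH genotypes 0 of 31 listed genes passed, and 0 of 35 in the interaction. The smallest interaction p of the list was that of Serpinf2, at 5.96 (SE 0.891, adjusted p = 0.0687), with sham libraries of 8, 3 and 5 counts in Fabp4flox/flox and 0, 0 and 1 in Fabp4CKO.

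**Figure D4:**
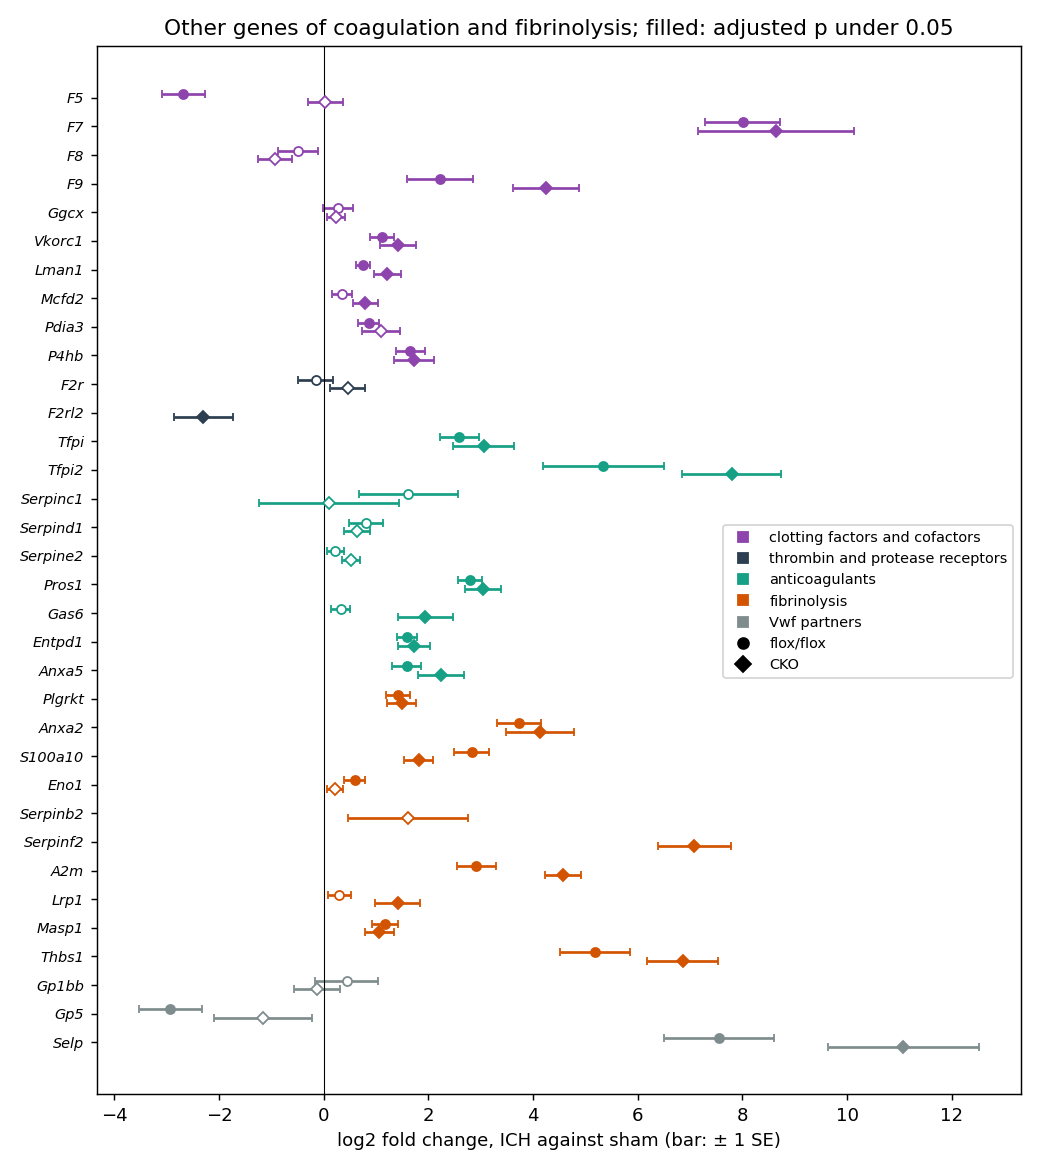
Log2 fold change of ICH against sham, with 1 SE, for the 34 listed genes that could be tested in either genotype, coloured by role, with circles for Fabp4flox/flox and diamonds for Fabp4CKO. Filled symbols passed an adjusted p of 0.05, and F5 and Gp5 are the filled circles left of 0.

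The genes whose profile over the 12 libraries was nearest to each member were found by the root-mean-square difference of centred log2 CPM among 15089 genes. For F10 they were Ccr1, Pira2 and Sirpb1c, 0.380 to 0.490 apart, and for F13a1 Gpr65, Acp5 and Ifi207, 0.460 to 0.568 apart. Plau was nearest to Cd300a (0.269), Anpep (0.355) and Mpeg1 (0.374), and Plaur to Bst1 (0.299), Lat2 (0.367) and Cytip (0.376). Vwf was nearest to Igfbp7 (0.217), Apod (0.295) and Gzmb (0.325), and Thbd to Tm4sf1 (0.244), Pim1 (0.336) and Pvr (0.342). Procr was nearest to Nlrp1b, Gtse1 and Tfec, 0.406 to 0.445 apart. F3 (Adipor2, Stxbp3 and Uvssa, 0.137 to 0.143) and Plat (Mcam, Taldo1 and Cd82, 0.158 to 0.171) had the smallest differences. All of these are descriptions over libraries that share surgery and genotype. With a prior count of 0.5 in place of 2, 1 of the 3 nearest genes was shared for F10 and 1 for F13a1.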

How the data were processed

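Poly(A)-selected RNA from 12 mouse brain samples was sequenced on an Illumina instrument. The values are estimated counts per gene as the authors deposited them, without normalization, for 21956 genes. Of these values 7.36% to 8.69% of the values per library were not whole, and they were rounded here. The submitters' processing notes name Bowtie2 2.2.8, HISAT2, StringTie 1.3.1 and DESeq2, with no roles, and the build and the strand setting are not given in the sources used here. Total counts were 15650813 to 22406216 per library, and floors cover counting error only.

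Tests used edgeR 4.0.16 in R 4.3.3: TMM normalization, filterByExpr (minimum count 10, total 15) and the quasi-likelihood F-test, with the 2 groups of a comparison in each fit, or all 12 libraries for the interaction, two-sided, with Benjamini-Hochberg adjusted p over all genes that passed the filter and a threshold of 0.05. The SE of a log2 fold change is its size divided by the square root of F. CPM values use TMM library sizes over all 12 libraries. A group with at most 3 counts in every library was set to that floor. The labels number the samples of a group and do not say that each is a separate mouse; they are called mice here, and p-values measure only the spread between these samples, which may be technical. No pair of libraries was a copy of another. The tests were checked on simulated data.

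The members and lists were chosen with earlier results of these data known. Named genes are all members, up to 4 of the genes called in Fabp4flox/flox in each of 5 groups of listed genes, ranked by size of change, those called between genotypes, the 3 nearest profiles, Fabp4 and the first 3 markers of each cell type list used. Serpinf2, F2rl2, F2, Gfap, Fn1 and Ms4a7 fall outside that rule and were chosen after their values were seen. Eno1, Lrp1 and Masp1 also fall outside it and are named to show what the fibrinolysis list holds. 1 gene of the list is not reported here. Alternatives were relative log expression (RLE) normalization, no TMM, DESeq2 1.42.0, other filters, other thresholds, all 12 libraries in one fit, replicate numbers as a block, and each library left out in turn; ratios to markers were added after the values were seen.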

Additional observations from a re-analysis of the deposited data

How the results depend on the processing

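Directions of the 9 genes in both comparisons of ICH with sham held under every alternative that gave a value, leave-one-out fits included. Their calls held in Fabp4flox/flox except for F3 and Thbd with a library left out, as given above, and in Fabp4CKO except for F13a1, Plau, Thbd and Procr with a library left out, while Plat passed with all 12 libraries in one fit (adjusted p = 0.0433). RLE normalization, no TMM and DESeq2 shifted the median of all genes by less than 0.1 on the log2 scale. Requiring at least 10 counts in every library left 5 members called in Fabp4flox/flox and 4 in Fabp4CKO, since F10, F13a1, Plaur and Procr were then not tested. Same-numbered libraries did not deviate together in every pair (correlations of their deviations from -0.575 to 0.311). Between the floxed ICH and sham groups these were 0.196, 0.023 and 0.127, against a mean of -0.057 for other pairs. The check cannot decide whether the numbers pair the samples, and the main tests did not pair them. With the replicate number as a block, Thbd in Fabp4flox/flox was at 1.55 (adjusted p = 0.0383) and Plau between ICH genotypes at 1.95 (adjusted p = 0.74); no member's call changed (9 and 8 called after ICH in Fabp4flox/flox and Fabp4CKO), and 0 listed genes passed between sham genotypes and 1 gene of all in the interaction.

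By an unadjusted p under 0.05 with a fold of at least 1.5, 2 members, 4 listed genes and 1290 of all genes passed between ICH genotypes, 3 listed genes and 590 of all between sham genotypes, and 1 member, 5 listed genes and 1191 of all in the interaction. DESeq2 called 578 genes of all and 2 listed genes between ICH genotypes, 150 and 2 between sham genotypes and 266 and 2 in the interaction. All 12 libraries in one fit gave 362 genes and 1 listed gene between ICH genotypes. With 10 counts required in every library, 2 genes of all and 0 listed genes passed between sham genotypes. The cause was not tested.

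Leaving out 1 library gave 7 to 9 members and 4181 to 8165 genes of all called in Fabp4flox/flox, and 4 to 9 members, 5 to 28 listed genes and 751 to 10099 genes of all in Fabp4CKO, with the most without ICH-Fabp4CKO mouse 2 and the fewest without Sham-Fabp4CKO mouse 3. Between ICH genotypes 0 to 2 genes of all passed, between sham genotypes 0 to 3 members, 0 to 7 listed genes and 0 to 2862 genes, and in the interaction 0 to 1 member, 0 to 3 listed genes and 0 to 371 genes. Signs turned in such fits for Thbd between ICH genotypes (-0.23 and -0.36, range -0.36 to 0.63), Plaur between sham genotypes (0.52, range -0.68 to 0.52) and the interaction terms of F3 (range -0.31 to 0.076) and Thbd (range -0.050 to 0.97), none of which passed the threshold. Depth limits F10 and Procr in sham tissue, where libraries had 0 to 15 counts and neither gene passed the filter between genotypes.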
